A study of Mus musculus with 6 samples.

Results

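Interferon signalling and antigen presentation on major histocompatibility complex (MHC) class I were followed here through 35 mouse genes across the cell types of the pancreas. The genes were named by symbol, with earlier results of these data known, and all 35 were found among the 31053 genes of the count tables. They were 5 class I chains (B2m, H2-D1, H2-K1, H2-Q7, H2-T23), 3 genes of peptide transport and loading (Tap1, Tap2, Tapbp) and 5 of the immunoproteasome and its activator (Psmb8, Psmb9, Psmb10, Psme1, Psme2). The others were 5 transcription factors (Irf1, Irf7, Irf8, Irf9, Stat2), 12 antiviral effectors (Ifit1, Ifit2, Ifit3, Isg15, Ifi27, Ifi35, Bst2, Rsad2, Ifitm2, Ifitm3, Usp18, Xaf1) and 5 interferon-inducible GTPases (Ifi47, Igtp, Iigp1, Gbp2, Gbp7).

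The series holds 6 single-cell RNA libraries of pancreatic cells from R26[CA]30EYFP mice on a C57Bl/6J background, each of EYFP positive or EYFP negative cells from run 1, 2 or 3. In this strain a CA repeat holds the EYFP gene at the Rosa26 locus out of frame, and slippage during replication can restore the frame at random, so that a cell and its progeny become labelled without Cre or drug. Runs 1 and 2 were untreated (homeostasis, 4 libraries). Run 3 (pancreatitis, 2 libraries) came from mice given cerulein, a cholecystokinin analogue that induces acute pancreatitis, by intraperitoneal injection at 50 ug/kg, 7 times a day at hourly intervals for 2 days and is labelled 9DPI, that is, day 9 after the pancreatitis. Runs of 1 condition are not said to come from separate animals. Sex-linked counts, given below, differ between runs 1 and 2 of homeostasis. Every p-value therefore measures the spread between these libraries, which may be technical or include a difference in sex.

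Type I interferons signal through Ifnar1 and Ifnar2 to a complex holding Stat2 and Irf9 that binds the interferon-stimulated response element (ISRE). Interferon gamma signals through Ifngr1 and Ifngr2 and acts on the gamma-activated site (GAS), and Irf1 is among the genes it induces. Both routes raise the class I pathway, in which proteasomes cut proteins into peptides, Tap1 and Tap2 carry the peptides into the endoplasmic reticulum, and class I chains bound to beta-2 microglobulin show them to CD8 T cells.

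The libraries differed widely in size, from 220 to 3593 barcodes and from 1044718 to 23658431 UMIs (unique molecular identifiers, each counting 1 captured transcript). Haemoglobin genes made up 62.6% of the UMIs of EYFP negative run 3 and 20.2% of those of EYFP positive run 3, against 0.213% to 7.23% in the other libraries. The EYFP negative and positive libraries of runs 1, 2 and 3 shared 23, 71 and 47 barcodes, and the copy with fewer UMIs was dropped. Filters left 4789 of 8582 barcodes in 21 clusters, which were matched to cell classes by marker genes, with the 35 genes and their pathway kept out of the clustering. The classes still come from the same cells. Class names stand for likeness to a marker list. In the order EYFP negative runs 1, 2 and 3, then EYFP positive runs 1, 2 and 3, there were 157, 845, 154, 571, 35 and 30 endothelial cells, 106, 343, 430, 28, 37 and 37 B or plasma cells, and 67, 159, 313, 42, 24 and 34 T or NK cells. Acinar cells numbered 8, 25, 369, 40, 35 and 101, ductal cells 24, 128, 5, 120, 25 and 15, and macrophages, monocytes or dendritic cells (called macrophages below) 33, 80, 22, 9, 12 and 8. Fibroblasts (26, 87, 38, 6, 5 and 6) are given by level only, and a class ranked below is ranked among these 7. Erythroid cells (2, 12, 84, 0, 1 and 3) are described apart. Run 3 is the only pancreatitis run. The run 1 libraries held 349 and 661 cells with Xist and without Y-linked UMIs and 0 of the opposite kind, the run 2 libraries 807 and 53 against 267 and 48, and the run 3 libraries 5 and 0 against 641 and 86. Run 3 and pancreatitis cannot be told apart, and sex differs with them except that run 2 held cells of both kinds. Runs 1 and 2 thus also differ in sex, and they do not come from the same set of animals.

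The binding motifs of the interferon pathway were more frequent in the promoters of these genes than in all promoters. RefSeq windows (build GRCm38.p6, 250 bases before to 50 after the start site) were matched for 31 of the 35 genes, and not for Tap2, Ifi27, Usp18 and Iigp1. The ISRE core, searched on both strands as GAAA, any 2 bases and GAAA again (TTTC, any 2 bases and TTTC on the other strand), was in 14 of these 31 (45.16%) and in 3.993% of the 27025 genes with a window. The GAS, TTC and GAA around any 3 bases, which reads the same on both strands, was in 9 of 31 (29.03%) and in 9.554% of all. The 2 motifs can overlap, and 19 of 31 members (61.29%) held either, against 12.93% of all genes. By role, the ISRE was in 7 of 10 antiviral effectors, 3 of 4 GTPases, 2 of 5 class I chains, 1 of 5 transcription factors, 1 of 5 immunoproteasome genes and 0 of 2 loading genes. A match is a description of letters and not of a bound site.

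The last 200 bases before the start site are shown for 7 of the 14 genes with an ISRE match, with the ISRE and GAS matches in capitals. Other genes described below, such as H2-Q7 and Psmb10, held neither motif. They run 5′ to 3′ on the strand of the gene, from Rsad2 (chr12:26456453-26456652, minus strand), Isg15 (chr4:156200819-156201018, minus), Ifit1 (chr19:34640689-34640888, plus), Ifit3 (chr19:34583329-34583528, plus), Gbp7 (chr3:142530136-142530335, plus), Bst2 (chr8:71537473-71537672, minus) and B2m (chr2:122147487-122147686, plus).
Rsad2: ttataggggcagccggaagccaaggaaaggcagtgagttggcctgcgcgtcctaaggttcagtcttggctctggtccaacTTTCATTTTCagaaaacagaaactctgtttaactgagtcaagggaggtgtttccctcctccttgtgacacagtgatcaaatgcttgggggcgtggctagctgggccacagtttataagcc
Isg15: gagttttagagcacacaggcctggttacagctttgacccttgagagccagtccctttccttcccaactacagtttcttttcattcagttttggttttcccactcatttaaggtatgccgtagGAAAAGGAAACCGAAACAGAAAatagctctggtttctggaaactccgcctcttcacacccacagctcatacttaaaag
Ifit1: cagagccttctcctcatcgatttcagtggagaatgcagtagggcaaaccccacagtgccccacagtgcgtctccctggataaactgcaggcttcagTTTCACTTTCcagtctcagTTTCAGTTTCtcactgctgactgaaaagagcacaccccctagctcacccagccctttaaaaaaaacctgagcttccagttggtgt
Ifit3: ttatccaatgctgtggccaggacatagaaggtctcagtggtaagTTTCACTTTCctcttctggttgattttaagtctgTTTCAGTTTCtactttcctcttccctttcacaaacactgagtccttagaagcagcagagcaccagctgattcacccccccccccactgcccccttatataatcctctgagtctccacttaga
Gbp7: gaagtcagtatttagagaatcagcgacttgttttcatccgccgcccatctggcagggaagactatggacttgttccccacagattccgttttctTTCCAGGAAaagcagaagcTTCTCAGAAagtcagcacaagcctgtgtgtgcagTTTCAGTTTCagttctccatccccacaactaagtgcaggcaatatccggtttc
Bst2: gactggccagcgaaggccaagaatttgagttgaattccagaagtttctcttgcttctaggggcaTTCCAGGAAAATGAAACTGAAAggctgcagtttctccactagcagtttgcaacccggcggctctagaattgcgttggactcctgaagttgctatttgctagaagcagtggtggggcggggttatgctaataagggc
B2m: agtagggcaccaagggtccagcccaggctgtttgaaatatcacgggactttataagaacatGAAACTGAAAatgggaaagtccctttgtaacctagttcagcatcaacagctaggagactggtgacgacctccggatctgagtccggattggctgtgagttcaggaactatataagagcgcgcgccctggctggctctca
The ISRE of Isg15 occurs as 3 overlapping copies whose first bases lie 78, 72 and 66 bases before the start. Ifit1 (104 and 85 bases before) and Ifit3 (156 and 122 bases before) each hold 2 copies on the opposite strand. Gbp7 joins an ISRE at 53 bases to GAS matches at 106 and 87 bases, and in Bst2 a GAS at 136 bases runs into ISRE copies at 130 and 124. B2m and Rsad2 hold 1 ISRE each, at 139 and 120 bases.

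Endothelial cells stood above the other classes for most of the 35 genes. Levels are given as CPM, the UMIs of a gene scaled to 1000000 UMIs of a class in a library, and each class was compared with the mean of 5 others (acinar, ductal, endothelial, B or plasma, T or NK, macrophage) within libraries by edgeR's quasi-likelihood test, with Benjamini-Hochberg adjustment over 9063 genes and a threshold of 0.05. All 35 genes passed the filter on low counts. In endothelial cells 31 were higher and 1 lower, where 31.5% of all genes tested were higher and 20.6% lower. Macrophages had 19 higher and 1 lower (background 19.6% and 6.48%), T or NK cells 16 and 4 (24.9% and 16.5%) and B or plasma cells 14 and 8 (24.3% and 17.5%). The exocrine classes went the other way, with 2 higher and 26 lower in acinar cells (20.5% and 21.1%) and 3 higher and 26 lower in ductal cells (28.5% and 17.6%). The median log2 difference over the 35 genes was 1.83 in endothelial cells, 1.21 in macrophages, 0.63 in T or NK cells, 0.23 in B or plasma cells, -1.55 in ductal and -2.49 in acinar cells, and that over all genes lay between -0.25 and 0.05. Summed over the 35 genes, the level ran from 16600 to 21850 CPM in the endothelial libraries, 10750 to 18550 in macrophages, 10790 to 12030 in T or NK cells, 6932 to 9097 in B or plasma cells, 6557 to 7450 in fibroblasts, 3544 to 4273 in ductal and 599.9 to 2439 in acinar cells. Digestive enzyme and haemoglobin genes took 24.6% to 81.13% of the acinar UMIs, and without them the acinar sum was 2117 to 4266 CPM.

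**Figure D1:**
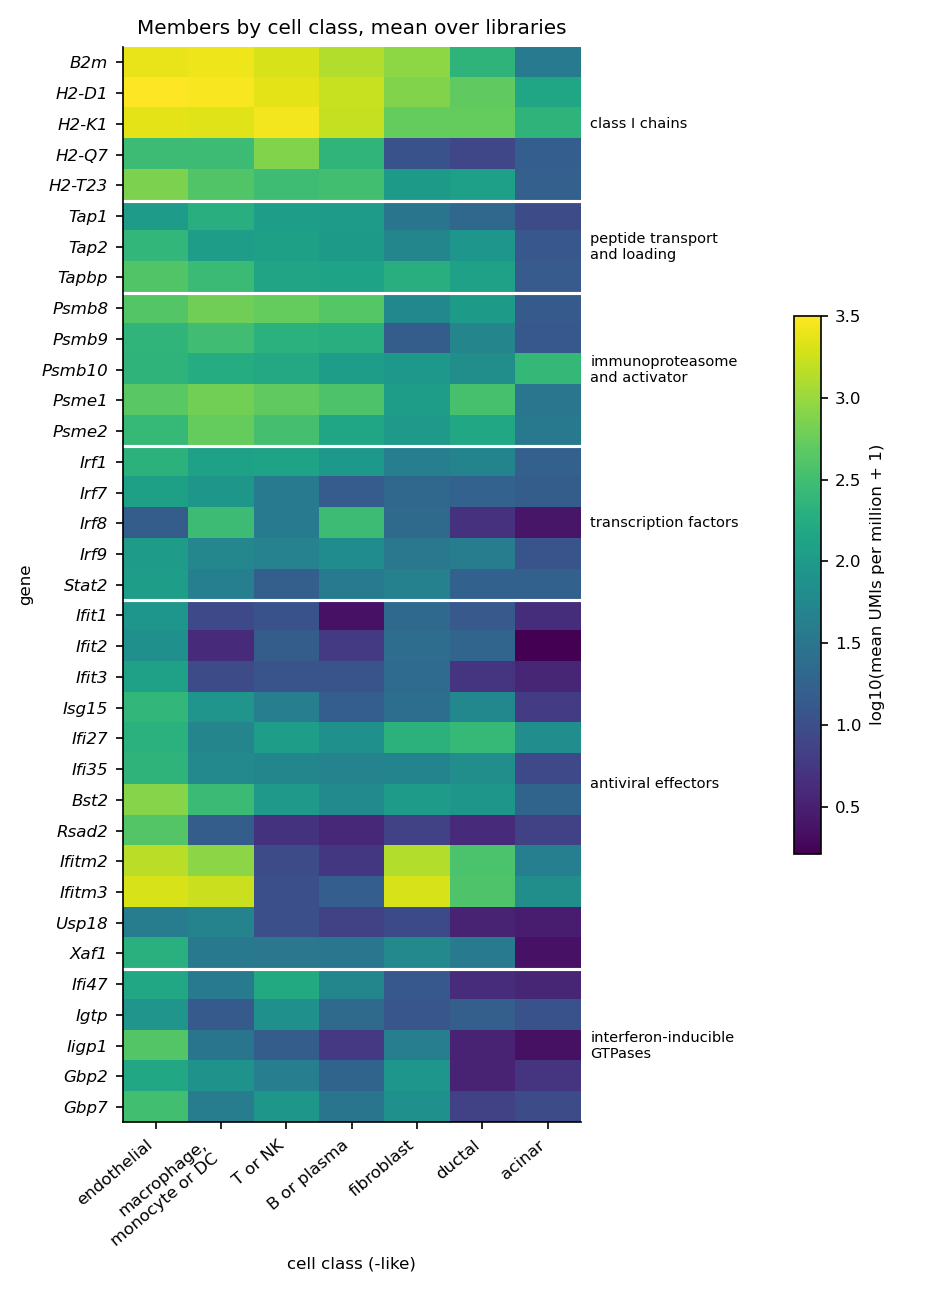
Mean level of each of the 35 genes (rows, grouped by role) in 7 cell classes (columns), coloured by log10 of the mean CPM over libraries plus 1. Endothelial cells have the highest mean for 22 genes and acinar cells the lowest for 24. How all genes rank by class was not counted. Digestive enzyme and haemoglobin genes took 24.6% to 81.13% of acinar UMIs, which lowers the CPM of other genes there.

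The 12 antiviral effectors were all higher in endothelial cells than in the mean of the other classes, and for 8 of them (Ifit1, Ifit2, Ifit3, Isg15, Ifi35, Bst2, Rsad2, Xaf1), as for the GTPases Iigp1 and Gbp7, no library of the other 6 classes with at least 10 cells reached the lowest endothelial library. Of all genes tested, 31.5% were higher in endothelial cells, and how many of them separate in this way was not counted. Rsad2 (viperin), a radical SAM enzyme that blocks viral replication, measured 325.6, 542.5, 407.4, 471.3, 409.5 and 360.2 CPM in endothelial cells (mean 419.4 ± 77.96, SD, n = 6). The next of the 7 classes, macrophages, stood at 14.19 ± 14.27 CPM, and the endothelial log2 difference was 5.79 ± 0.20 (SE, adjusted p = 2.11e-26 by edgeR). Bst2 (tetherin), which holds budding virions at the cell surface, was at 488.3, 907.3, 822.1, 647.7, 929.9 and 1034 CPM. Its lowest endothelial library lay above every macrophage library (mean 283.1 ± 112.5 CPM), and the log2 difference was 2.71 ± 0.20 (adjusted p = 7.11e-16 by edgeR). Isg15, a ubiquitin-like modifier, was at 181.5, 219.8, 229.0, 228.3, 383.9 and 233.4 CPM. Here the gap was narrow, since the EYFP negative run 3 macrophages reached 180.3 CPM, and the log2 difference was 2.67 ± 0.23 (adjusted p = 1.67e-13 by edgeR).

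The Ifit genes, whose products bind viral RNA, averaged 87.56 ± 34.23 (Ifit1), 72.42 ± 26.59 (Ifit2) and 123.3 ± 72.51 CPM (Ifit3) in endothelial cells, 3.32 ± 0.24, 3.25 ± 0.26 and 4.01 ± 0.32 above the other classes on the log2 scale. Ifit3 varied most between libraries, from 65.49 to 264.5 CPM, and its counts may include reads of its near copy Ifit3b. Xaf1, a pro-apoptotic factor, and Ifi35 were steadier, at 198.8 ± 18.8 and 225.7 ± 22.33 CPM, against 57.09 in fibroblasts and 67.3 in ductal cells as the next class. Usp18, the protease that removes Isg15 and damps the type I receptor, was the exception: macrophages (47.73 ± 23.16 CPM) and endothelial cells (39.56 ± 2.767) overlapped.

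The membrane proteins Ifitm2 and Ifitm3, which hinder virus entry, were shared between stromal and myeloid cells and low in lymphocytes. Ifitm3 averaged 2013 ± 437.3 CPM in endothelial cells, 1989 ± 92.71 in fibroblasts and 1740 ± 1475 in macrophages, which do not differ beyond their spread. Ductal cells held 389.6, acinar cells 67.4, B or plasma cells 14.91 and T or NK cells 9.302 CPM. Ifitm2 followed the same order at the top (1445 ± 281.3 in endothelial cells, 1335 in fibroblasts, 840.4 in macrophages) and the same gap below (8.279 in T or NK, 4.638 in B or plasma cells). Relative to the other classes, both genes were lower in T or NK cells (-4.64 ± 0.54 for Ifitm2, -5.18 ± 0.61 for Ifitm3, log2) and in B or plasma cells (-4.91 ± 0.54 and -4.10 ± 0.57). The 2 genes are near copies, so reads could be split between them, and Ifitm2 overlaps Gm45717 on the same strand. Ifi27, a mitochondrial and nuclear-envelope protein, was highest in ductal cells, at 262.6 ± 40.39 CPM against 210.2 ± 32.3 in fibroblasts and 203.3 ± 43.48 in endothelial cells, neighbours whose spreads overlap.

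**Figure D2:**
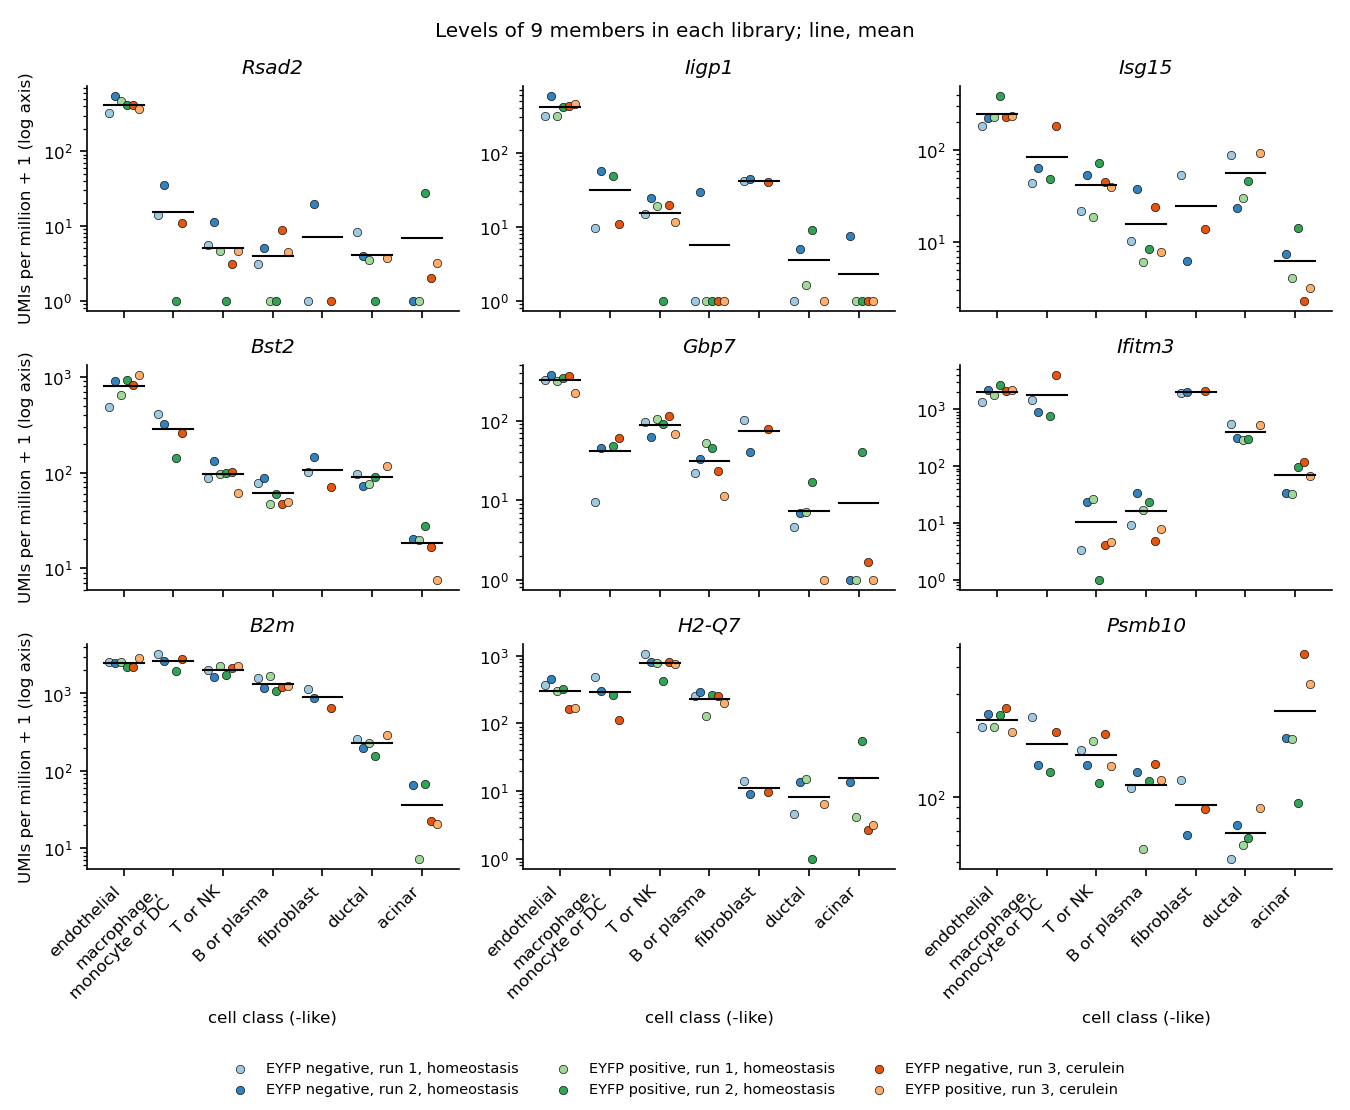
Level of 9 of the genes in each library and class, on a log axis of CPM plus 1, with a point for each library and a line at the class mean. Rsad2, Iigp1, Isg15, Bst2 and Gbp7 are higher in every endothelial library than in any library of another class with at least 10 cells, and Psmb10 is as high in acinar cells (251.5 CPM) as in endothelial cells (227.0 CPM).

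Of the GTPases, Iigp1, Gbp7 and Gbp2 were highest in endothelial cells, and Ifi47 and Igtp were alike in endothelial and T or NK cells. Iigp1 (Irga6), which attacks the vacuoles of intracellular parasites, was at 308.7, 578.1, 424.3, 314.5, 418.0 and 453.6 CPM in endothelial cells. The next class was fibroblasts, at 40.54 ± 1.674 CPM, and the endothelial log2 difference of 5.92 ± 0.30 (adjusted p = 2.82e-21 by edgeR) was the largest of the 35. Gbp7, a guanylate-binding protein, was at 323.7, 371.2, 361.6, 310.6, 341.3 and 220.1 CPM, above T or NK cells at 88.5 ± 20.03 (3.70 ± 0.20, adjusted p = 2.86e-20 by edgeR). Gbp2 was also highest in endothelial cells (146.2 ± 17.07 CPM against 85.06 in fibroblasts). In T or NK and endothelial cells Ifi47 (Irgd) was at 160.2 ± 38.76 and 147.9 ± 33.17 CPM, and Igtp (Irgm3) at 71.31 and 83.98. Ifi47 overlaps Olfr56 and Igtp overlaps Irgm2, each on the same strand, so the counts of both are uncertain.

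The class I chains formed a steady gradient from endothelial and immune cells down to exocrine cells. B2m, the invariant light chain, was at 2580, 2473, 2177, 2546, 2218 and 2888 CPM in endothelial cells and 3189, 2617, 2775 and 1933 in the 4 macrophage libraries with at least 10 cells. It fell to 2009 ± 268.9 CPM in T or NK cells, 1324 ± 232.2 in B or plasma cells, 888.6 ± 251.4 in fibroblasts, 225.2 ± 53.64 in ductal cells and 35.72 ± 27.83 in acinar cells. Endothelial cells and macrophages do not differ beyond their spread. On the log2 scale B2m was 2.00 ± 0.25 above the other classes in macrophages and 1.52 ± 0.21 (adjusted p = 5.4e-08) in endothelial cells, and 2.75 below in ductal and 3.47 below in acinar cells by edgeR (-2.75 ± 0.31, adjusted p = 5.07e-10, and -3.47 ± 0.34, adjusted p = 4.75e-11). The heavy chains H2-D1 and H2-K1 kept this shape, from 3186 ± 582.5 and 2312 ± 403.1 CPM in endothelial cells to 505.4 and 537.3 in ductal and 137.3 and 222.3 in acinar cells. H2-K1 was highest in T or NK cells, at 2824 ± 276.9 CPM.

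H2-Q7, a class Ib chain anchored in the membrane by lipid, was highest in T or NK cells, as H2-K1 was. T or NK cells held 1041, 814.5, 794.4, 776.3, 425.9 and 744.7 CPM, and every one of these libraries but EYFP positive run 2 lay above 458.0, the highest endothelial value. Endothelial cells averaged 296.9 ± 115.5 CPM and ductal cells 7.173, and the T or NK log2 difference was 3.36 ± 0.21 (adjusted p = 1.44e-17 by edgeR). The ductal difference was -4.84 ± 0.38, the lowest of the ductal class. H2-T23 (Qa-1), the ligand of the NK receptor NKG2A, was instead highest in endothelial cells, at 720.9 ± 134.8 CPM against 405.3 in macrophages. The H2 genes are a multigene family whose members share sequence, so these counts may be split between copies.

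The loading genes, like most of the chains, were lowest in acinar cells, but Tapbp did not keep the order of the chains. Fibroblasts stood above T or NK and B or plasma cells for Tapbp, and below both for B2m, H2-D1 and H2-K1. Tap2 and Tapbp (tapasin, which bridges the transporter to the class I chain) were highest in endothelial cells, at 242.5 ± 58.04 and 411.2 ± 62.86 CPM, and Tap1 in macrophages, at 196.0 ± 106.3 CPM against 102.2 in endothelial cells. All 3 were called higher in endothelial cells (0.73, 1.36 and 1.51 for Tap1, Tap2 and Tapbp on the log2 scale) and lower in ductal and acinar cells. Tapbp overlaps Zbtb22 on the same strand, and Tap1 overlaps Psmb9 on the other.

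Among the transcription factors, Irf8 was the only member lower in endothelial cells (-1.40 ± 0.48, adjusted p = 0.0131 by edgeR). Irf8, a factor of myeloid and B cell development, was at 294.7 ± 150.9 CPM in macrophages and 292.7 ± 79.57 in B or plasma cells, against 14.0 ± 4.915 in endothelial cells. Within T or NK cells it was uneven: the cluster led by the NK genes Gzma, Ncr1 and Klre1 held 283.8 CPM and the T cell clusters 2.36 to 20.24. The plasma-cell cluster held 28.07 CPM, and the 3 other B cell clusters 214.4 to 370.2. The other 4 factors were higher in endothelial cells: Irf7, which amplifies type I interferon production (119.3 ± 29.79 CPM, 2.10 ± 0.22 on the log2 scale), Irf1 (208.2 ± 39.21, 1.47 ± 0.22), Irf9 (106.4, 1.22 ± 0.20) and Stat2 (108.7 ± 53.94, 1.83 ± 0.20). Irf8 overlaps Gm20388 and Irf9 overlaps Rnf31, each on the same strand.

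The levels were spread over the endothelial clusters rather than held by 1 of them. The 5 endothelial clusters (570, 341, 245, 367 and 269 cells) summed to 18720, 19100, 21670, 17510 and 18480 CPM over the 35 genes, pooled over libraries. The mean over libraries with at least 10 cells of a cluster is given for 3 genes. Iigp1 was at 576.8 ± 229.8 CPM in the cluster led by Aplnr, Fabp5 and Aqp1 and at 309.0 to 457.5 in the others, with overlapping libraries. Isg15 was at 370.3 ± 76.65 CPM in the cluster led by the arterial genes Fbln5, Edn1, Gja4 and Sema3g and at 182.8 to 247.3 in the others, one of which reached 645.1 in 1 library. Rsad2 ran from 279.2 ± 110.1 CPM in that arterial cluster to 579.0 ± 176.5 in the one led by Esm1, Car4 and Rgcc. These values have no test. All 16 endothelial markers were above 0 in every endothelial library, and the summed T or NK list was 0 to 48.94 CPM there. Markers of other lists were present in at least 10% of the cells of each of the 5 clusters. They were 1 of 17 macrophage markers (in 47.5% to 89.1% of cells), 3 or 4 of 16 B or plasma markers and 14 or 15 of 20 acinar markers. So were 3 or 4 of 9 erythroid markers, the most frequent of them in 24.3% to 78.6% of cells. Their part in the levels was not tested.

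Erythroid cells held Rsad2, Isg15 and class I chains but few UMIs of Iigp1 and the Ifit genes. Rsad2 measured 156.3 CPM in EYFP negative run 2 (12 cells, 20 UMIs) and 168.4 in EYFP negative run 3 (84 cells, 244 UMIs), the libraries with at least 10 such cells. Digestive enzyme and haemoglobin genes took 91.89% and 92.22% of these UMIs, and without them Rsad2 stood at 1927 and 2166 CPM, above the endothelial range of 326.4 to 546.3 on the same scale. Isg15 on that scale was at 2120 and 1154 CPM, against 182.0 to 386.9 in endothelial cells. B2m was at 1831 and 781.1 CPM and H2-K1 at 2698 and 1234. Iigp1 (0 and 62.13 CPM), Ifit1 (0 and 97.64), Ifit2 (0 and 17.75) and Ifit3 (0 and 0) held few UMIs or none. In EYFP negative run 3 Ifit1 was near its endothelial mean of 87.56 CPM (all genes counted). Iigp1, Ifit2 and Ifit3 lay there below the lowest endothelial libraries, at 308.7, 46.69 and 65.49 CPM. The values of 0 in EYFP negative run 2 come from 12 cells with 127997 UMIs, mostly haemoglobin, and set no close limit. These values have no test, since erythroid cells were not among the classes fitted, and the class was singled out after their values were seen.

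Other genes of the pathway, taken from a list chosen by function, gave a similar order of classes. Of 10 interferon genes, Ifng was the only one with enough UMIs to test, and it was higher in T or NK cells (36.78, 10.27, 76.08, 28.36, 58.08 and 99.3 CPM, 7.60 ± 0.44 on the log2 scale). Endothelial, ductal and acinar cells and macrophages held 0 Ifng UMIs, and Ifnb1 had 1 UMI in all. Of 8 receptor and kinase genes tested, endothelial cells had 5 higher, among them Ifnar2 (2.14 ± 0.16) and Ifngr1 (1.68 ± 0.19), while acinar cells had 7 lower and ductal cells all 8 (of all genes tested, 31.5% were higher in endothelial cells, 21.1% lower in acinar and 17.6% lower in ductal cells, which holds for the next list too). Of 41 other interferon-induced genes tested, 31 were higher and 6 lower in endothelial cells, 25 and 0 in macrophages, 23 and 2 in T or NK cells, 19 and 5 in B or plasma cells, 2 and 22 in ductal cells and 0 and 27 in acinar cells. Ifi44, an induced gene of antiviral function, led them in endothelial cells (117.9, 119.1, 156.7, 147.3, 85.32 and 153.4 CPM, 7.43 ± 0.32), followed by Gbp4 (3.90 ± 0.23), Gbp3 (3.22 ± 0.22) and Gbp9 (3.02 ± 0.20).

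The immunoproteasome set the lymphocytes beside the endothelium and set the acinar cells apart by 1 gene. Psmb8, Psmb9 and Psmb10 replace the constitutive catalytic subunits Psmb5, Psmb6 and Psmb7, and Psme1 and Psme2 form the activator PA28. Psmb8 was at 619.1 ± 223 CPM in macrophages, 535.4 in T or NK cells, 430.9 in B or plasma cells and 418.0 ± 136.2 in endothelial cells, and at 99.51 in ductal, 55.59 in fibroblasts and 13.11 in acinar cells. Psme1 and Psme2 were likewise highest in macrophages (642.9 and 532.9 CPM). As a share of the paired UMIs, Psmb8 made up 72.16% ± 4.279 in endothelial cells (SD over libraries), 79.28% ± 3.27 in B or plasma cells, 78.95% ± 1.933 in T or NK cells and 78.4% ± 9.395 in macrophages, against 31.44% ± 4.695 in ductal cells and 34.93% ± 5.002 in fibroblasts. The Psmb9 share showed the same divide (58.78% ± 5.545 in endothelial, 14.41% ± 2.606 in ductal cells, 8.683% ± 7.625 in fibroblasts). The Psmb10 share did not: it was 92.12% ± 4.075 in acinar cells, 71.41% ± 6.155 in endothelial and 38.47% ± 5.038 in ductal cells. In fibroblasts it was 67.21%, close to the endothelial value.

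**Figure D3:**
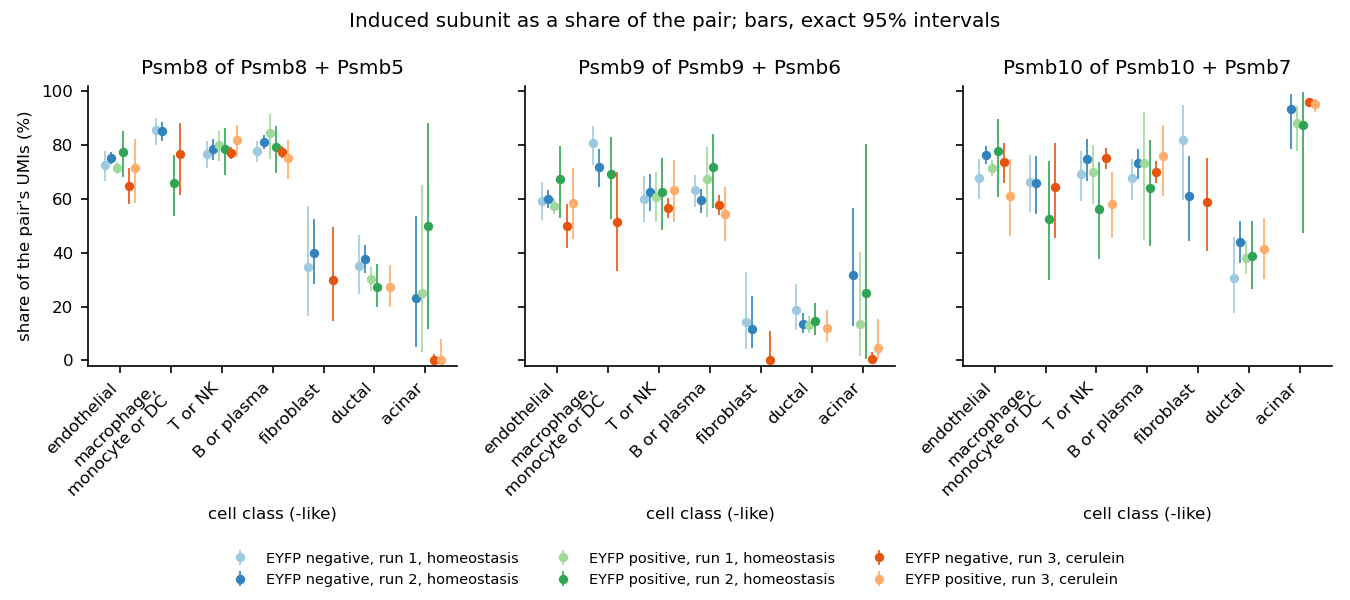
UMIs of each immunoproteasome subunit as a percent of its UMIs plus those of its constitutive counterpart, by class and library, with exact 95% binomial intervals that cover counting error only. Acinar libraries lie at 87.5% to 96.18% for Psmb10, above every endothelial library, and at 0% to 50% for Psmb8.

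Acinar Psmb10 was higher than in the other classes by 3.18 ± 0.32 on the log2 scale (adjusted p = 8.5e-11 by edgeR), while Psmb8 was lower by 4.69 (-4.69 ± 0.44). Across the acinar libraries with at least 10 cells (EYFP negative runs 2 and 3, then EYFP positive runs 1, 2 and 3), Psmb10 measured 186.6, 458.2, 185.3, 93.29 and 334.1 CPM and Psmb8 19.31, 0, 6.281, 39.98 and 0 CPM. On the same strand Psmb10 lies between Lcat, upstream and nearer, and Ctrl, downstream. Ctrl encodes a chymotrypsin-like digestive enzyme. Ctrl was at 11700, 24750, 20290, 7490 and 23700 CPM in these libraries, which gave 1.595, 1.852, 0.9133, 1.246 and 1.409 Psmb10 UMIs per 100 Ctrl UMIs. The acinar cluster rich in enzymes (78.21% of UMIs) held 403.3 CPM of Psmb10 and 23780 of Ctrl, and the other (13.89%) held 12.39 CPM, 1 UMI, with 5463 of Ctrl. Whether reads of Ctrl entered the Psmb10 count was not tested. Apart from Psmb10, only Ifi27 was called higher in acinar cells (0.77 ± 0.25, adjusted p = 0.0103), although its level of 66.11 ± 68.73 CPM lay below that of 5 other classes. The scaling between classes differs from CPM because enzymes fill the acinar libraries, and without enzymes and haemoglobin Ifi27 measured 157.7 ± 96.44 CPM. The Ifi27 call was lost without either run 3 library.

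Single cells were counted by how many induced genes they held. Each cell was thinned to 1000 UMIs and counted where it held at least 3 of 12 induced genes (Ifit1, Ifit2, Ifit3, Isg15, Rsad2, Usp18, Irf7, Xaf1, Ifi47, Igtp, Iigp1, Gbp2). Of endothelial cells, 19 of 134 (14.18%, exact 95% interval 8.758% to 21.25%), 149 of 670 (22.24%, 19.14% to 25.58%), 23 of 105 (21.9%, 14.42% to 31.03%), 108 of 547 (19.74%), 7 of 29 (24.14%) and 7 of 25 (28.0%) did so. The share was 0% to 0.9709% in B or plasma cells, 0% to 2.985% in T or NK cells and at most 2 of 20 cells in macrophages. Acinar and ductal cells gave 0 in every library, which allows up to 0.8287% in the largest acinar library (0 of 362) and 2.4% in the largest ductal one (0 of 125). That limit is for cells that reach 3 genes at this depth and not for cells that express them, since enzymes and haemoglobin take up to 81.13% of acinar UMIs and 8 of 128 cells of that ductal library (6.25%) reached 3 genes before thinning. Before thinning, the endothelial shares were 46.1% to 73.56%, those of T or NK cells 15.72% to 33.33% and those of ductal cells 4.167% to 40%. Thinning left out 23, 175, 49, 24, 6 and 5 endothelial cells as too shallow. The share to be seen if all cells of a class expressed these genes evenly was not computed. How the endothelial level was divided among cells was therefore not tested. The endothelial share averaged 20.07% in homeostasis and 24.95% in pancreatitis, a difference of 4.877 points (p = 0.4, two-sided exact permutation test, whose smallest possible p is 0.06667, adjusted p = 1.0 over 6 classes). The test takes the 6 libraries as independent, although the fractions of a run are not, and over runs, 2 against 1, no p could pass the threshold.

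**Figure D4:**
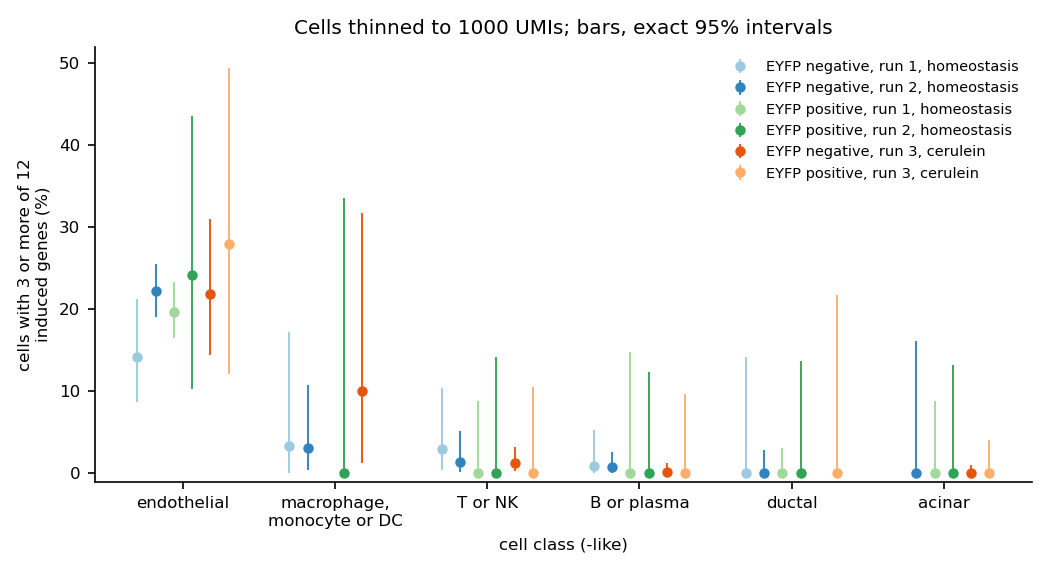
Percent of cells with at least 3 of 12 interferon-induced genes at 1000 UMIs per cell, by class and library, with exact 95% binomial intervals for counting error. The 6 endothelial libraries lie between 14.18% and 28.0%, and all acinar and ductal libraries at 0%.

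The cerulein run was compared with homeostasis in each class, with EYFP fraction in the model, and 1 of the members tested was called in any class. Ifitm3 rose in macrophages, by 1.53 ± 0.31 on the log2 scale (adjusted p = 0.0343 by edgeR), the one call among 26 members tested where 1.75% of all genes were called. The 3 homeostasis libraries measured 1428, 882.7 (EYFP negative runs 1 and 2) and 742.5 CPM (EYFP positive run 2), against 3907 in EYFP negative run 3. The libraries with under 10 macrophages, which were not in the fit, held 2067 (EYFP positive run 1) and 2696 CPM (EYFP positive run 3). The call therefore rests on 1 pancreatitis library with 22 macrophages, and DESeq2 gave an adjusted p of 0.549, the highest over the alternatives tried (from 5.28e-06). The count depended on the fit: edgeR with DESeq2 size factors called 9 macrophage members, and with the 2 fractions of each run summed it called 8, with 1 in acinar, 2 in B or plasma and 1 in T or NK cells.

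A further 15 macrophage genes had an unadjusted p under 0.05, 3 of them positive and 12 negative, where 475 of all 3714 genes had such a p. Irf7 was at 46.9, 31.34, 240.4 and 35.35 CPM in the 3 EYFP negative libraries by run and then EYFP positive run 2 (2.39 ± 0.55, adjusted p = 0.0577 by edgeR), and Ifitm2 at 541.4, 595.4, 1883 and 341.8. In both, run 3 was the highest library. Tap1, Gbp2 and H2-Q7 were negative, with Tap1 at 277.1, 242.9, 40.07 and 223.9 CPM (-2.92 ± 0.66, adjusted p = 0.0515 by edgeR). Gbp2 was at 119.4, 141.0, 20.03 and 35.35 CPM and H2-Q7 at 490.3, 297.7, 110.2 and 259.3 CPM, run 3 being the lowest in each. Of the other GTPases Gbp7 was at 0.79 ± 1.08 and 3 were not tested. The median change over the 26 was -1.15, that over all genes -0.10. The induced chemokines Ccl5 (1697, 2327, 10.02 and 695.3 CPM) and Cxcl9 (140.7, 188, 0 and 0 CPM) were low or listed at 0 in run 3, and of 27 other induced genes 1 was called higher and 3 lower. The makeup of the class moved with the run: in the same order Lyz2 was at 4540, 7829, 19220 and 6611 CPM, the dendritic marker Cd209a at 25.58, 80.96, 611 and 11.78, Itgax at 170.5, 54.84, 70.12 and 117.8, Ms4a7 at 162, 582.4, 70.12 and 94.28, C1qa at 528.7, 2711, 841.4 and 1803, the 17 markers of the class summed to 15080, 34700, 40940 and 21080 with 0 of them at 0, and the 12 neutrophil markers to 2017, 1927, 10390 and 117.8 with 4, 2, 4 and 10 at 0. Their part in these values was not tested.

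In the other 5 classes edgeR called no member after cerulein, and DESeq2 none in any class. For acinar cells this was 0 of 9 tested (background 5.27%), with 4 at an unadjusted p under 0.05, as were 542 of all 1879 genes: Ifitm3 (2.41 ± 0.79, adjusted p = 0.0786), Psmb10 (2.55 ± 1.08), Ifitm2 (1.61 ± 0.70) and H2-D1 (-1.73 ± 0.74). For endothelial cells it was 0 of 34 (background 0.0562%), with 1 at p under 0.05 (401 of all 7121 genes), H2-Q7 (-1.14 ± 0.28, adjusted p = 0.276). Endothelial H2-Q7 was at 370.5, 458.0, 163.9, 298.1, 324.2 and 166.7 CPM, and both run 3 libraries lay below the 4 homeostasis libraries. Ductal cells gave 0 of 23 (background 0.0653%, 2 at p under 0.05 beside 237 of all 7659 genes, Isg15 and Ifitm3, both positive). B or plasma cells gave 0 of 29 (background 0.93%, 6 at p under 0.05 beside 606 of all 6343 genes), all 6 negative, among them Ifitm3 (-2.52 ± 0.66, adjusted p = 0.107) and Bst2 (-0.89 ± 0.25, adjusted p = 0.136). One B cell cluster made up 83.26% and 81.08% of the class in run 3 and 20.7% to 67.57% in homeostasis, and its part was not tested. T or NK cells gave 0 of 26 (background 0.61%, 1 at p under 0.05 beside 352 of all 5242 genes), which was Irf8 (1.79 ± 0.48, adjusted p = 0.164), at 55.17, 11.74, 94.44, 7.09, 0 and 42.56 CPM. Cells of the NK-led cluster, which carries Irf8, made up 13.43%, 8.176%, 26.2%, 16.67%, 4.167% and 20.59% of T or NK cells in these libraries. Their part in the Irf8 value was not tested. Leaving out 1 library made 2 calls in acinar cells (Ifitm3 and Psmb10 higher, without EYFP positive run 1), 3 in B or plasma cells (Ifitm3, Bst2 and H2-T23 lower, without EYFP positive run 2) and 1 in T or NK cells (Irf8 higher, without EYFP negative run 1). In counts simulated from the B or plasma libraries the same test recovered 15 of 63 2-fold, 57 of 66 4-fold and 55 of 71 8-fold changes over 6308 genes. The 8-fold genes it missed had failed the low-count filter, and all 55 that were tested were called.

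**Figure D5:**
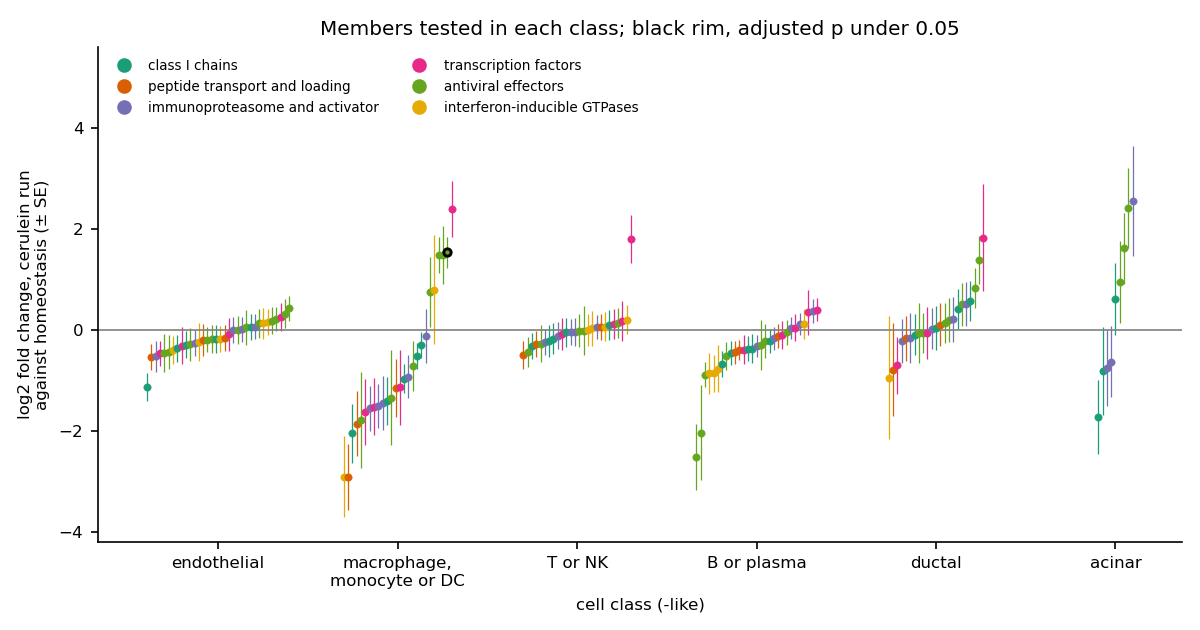
Log2 change of each tested member between the cerulein run and homeostasis, with its SE, in 6 cell classes; a black rim marks an adjusted p under 0.05. Macrophage Ifitm3, at 1.53, is the one change that passed, and macrophage values spread from -2.92 to 2.39.

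Whether the cerulein effect of a class differed from the mean of the others was tested as an interaction over 10904 genes. All 35 members were tested. Acinar cells had 5 called where 15.3% of all genes were, a share near the background, and of these 4 were positive: Psmb10 (3.10 ± 0.40, adjusted p = 2.13e-08), Ifitm3 (3.66 ± 0.57, adjusted p = 1.11e-06), Ifitm2 (3.14 ± 0.56, adjusted p = 1.41e-05) and Ifi27 (1.70 ± 0.42, adjusted p = 0.00181, all by edgeR). The acinar levels themselves overlapped between conditions, with Ifitm3 at 32.18, 114.2, 31.41, 93.29 and 65.93 CPM, Ifitm2 at 32.18, 53.64, 25.13, 66.64 and 32.97, and Ifi27 at 45.05, 51.32, 15.7, 186.6 and 31.87 (EYFP negative runs 2 and 3, then EYFP positive runs 1, 2 and 3). Psmb8 was the one called negative (-7.07 ± 2.13, adjusted p = 0.0124), with 8 UMIs in the homeostasis libraries (14.58 CPM) and 0 of 3930214 UMIs in pancreatitis. A count of 0 allows up to 0.9933 CPM in EYFP negative run 3 and 3.297 in EYFP positive run 3 (3 counts per library), below the 3 homeostasis libraries at 6.281 to 39.98 CPM. The fitted value depends on the prior count. Without EYFP negative run 3 the Psmb8 (adjusted p = 0.246 by edgeR) and Ifi27 (adjusted p = 0.217) calls were lost, and without EYFP positive run 3 that of Psmb8 (adjusted p = 0.0732).

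The acinar class changed in several other ways between runs. The split of all genes called in the acinar interaction was 1164 higher and 509 lower, and 784 and 830 with DESeq2 size factors, which moved the median of all genes from 0.17 to -0.24. All 5 members stayed called there. Of the acinar cells of EYFP positive run 2, 31 of 35 (88.57%) belonged to the enzyme-poor cluster, which held no run 3 cell. In the order just given, the summed immediate-early genes were at 2381, 67.88, 1018, 22760 and 222 CPM, the 16 endothelial markers at 160.9, 11.59, 179.0, 679.7 and 17.58 with 7, 4, 5, 5 and 5 of them at 0, and the 12 endocrine markers at 110500, 24.17, 24380, 53.31 and 85080 CPM. Their part in the acinar values was not tested.

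In lymphocytes 1 gene of each class was called in the interaction. Ifitm3 in B or plasma cells (-3.20 ± 0.75, adjusted p = 0.0375, background 0.174%) had 8.339, 32.95, 3.75, 15.49, 22.08 and 6.833 CPM from 8, 48, 9, 3, 3 and 2 UMIs. Ifitm2 in T or NK cells (-4.01 ± 0.89, adjusted p = 0.0265 by edgeR, background 0.266%) had 4.597, 26.42, 1.574, 10.63, 6.453 and 0 CPM from 2, 18, 3, 3, 1 and 0 UMIs. In both genes EYFP negative run 2 held most of the UMIs. Each call was lost without that library (-2.50 and -3.23), without EYFP negative run 3 (-1.97 and -5.44) or without EYFP positive run 3 (-3.33 and -3.83). The summed endothelial markers were at 169.9, 215.6, 154.6, 340.8, 110.4 and 160.6 CPM in B or plasma cells (6, 1, 8, 6, 11 and 13 of 16 at 0) and 195.4, 264.2, 74.51, 340.3, 103.2 and 81.57 in T or NK cells (5, 2, 6, 1, 11 and 12 at 0), and their part was not tested. In ductal and endothelial cells and macrophages edgeR called 0 members (backgrounds 0.0275%, 0.0367% and 0.165%), with 1, 4 and 7 of 35 at an unadjusted p under 0.05. Of all 10904 genes, 628, 734 and 677 had such a p. DESeq2 was not run for this contrast. In simulated counts the interaction test of B or plasma cells recovered 6 of 54 2-fold, 29 of 63 4-fold and 63 of 83 8-fold changes over 10493 genes. A class without a call may therefore hold changes that were missed.

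EYFP positive and EYFP negative cells were compared, with condition in the model, as the contrast of labelled with unlabelled cells that the series' design names. Neither edgeR nor DESeq2 called a member in any of the 6 classes, where edgeR called 0% of all genes in acinar cells, 0.379% in ductal, 0.0702% in endothelial, 0.0788% in B or plasma, 0.0382% in T or NK cells and 0.296% in macrophages. At an unadjusted p under 0.05 by edgeR there were 0, 0, 1, 4 and 1 members in the first 5 of these classes. Of all genes, 16 of 1879, 153 of 7659, 130 of 7121, 287 of 6343 and 261 of 5242 had such a p. The endothelial one was Ifit3 (0.69) and that of T or NK cells Irf8 (-1.69 ± 0.57, adjusted p = 0.62). In B or plasma cells Irf1 (0.79) and Xaf1 (0.96) were positive and H2-Q7 (-0.59) and Isg15 (-1.96) negative. In macrophages 25 of the 26 members tested had a negative sign (median -0.66, all genes -0.10), among them H2-K1 (-1.02 ± 0.29). That fit holds 1 EYFP positive library with 12 macrophages.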

How the data were processed

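The values the authors deposited are unnormalized UMI counts, stored as integers per the file headers. The submitters' processing notes name Cell Ranger 2.1.0 and GRCh38, a human build. The file headers name software version 3.1.0, and every gene identifier is a mouse one. The mouse build behind them was not given in the sources used here. The tables held 0 rows for EYFP, so the labels' fractions could not be checked in the counts.

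The 35 genes, the pathway and marker lists and the tests were chosen with earlier results of these data known. All 35 genes were to be named, those with an adjusted p under 0.05 first, then up to 4 per role by p.

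Kept barcodes had 200 or more genes and no more than 20% mitochondrial UMIs. Scrublet (scanpy 1.11.5, 20 components) called 41 doublets, which were removed. Of barcodes shared within a run, 141 lower copies were left out (99 of them passing the filters). Leiden clustering (igraph 0.11.9, resolution 1) on 30 components and 15 neighbours, from counts scaled to 10000 per cell and 2000 variable genes that leave out 133 pathway genes, gave 21 clusters. A cluster took the class with most markers among its 10 leading genes (in at least 25% of cells) and at least 3 markers in at least 10% of cells. A second step, chosen after seeing the data, named 4 endothelial and 1 B cell cluster, where at least 90% of 1 list and at most 50% of the next was detected.

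UMIs were summed per class and library with at least 10 cells, and CPM were computed from those sums. Acinar cells therefore enter without EYFP negative run 1, ductal cells without EYFP negative run 3, and macrophages with EYFP negative runs 1 to 3 and EYFP positive run 2. The sums were tested with edgeR 4.0.16 in R 4.3.3 (TMM, filterByExpr, quasi-likelihood, Benjamini-Hochberg over all genes tested, threshold 0.05), with DESeq2 1.42.0 and limma 3.58.1 as alternatives. The edgeR cerulein test within a class and the interaction test were tried on counts simulated from the B or plasma libraries. Exact permutation tests and binomial intervals (exact Clopper-Pearson, 95%) used scipy 1.17.1, and intervals and floors (3 counts) cover counting error only. Python 3.11.15, numpy 2.4.6, pandas 2.3.3, scikit-learn 1.9.0 and matplotlib 3.10.9 were used. Libraries of 1 run share a run number in the labels, and their deviations from the condition means correlated at 0.318 in ductal, 0.359 in endothelial, 0.240 in B or plasma and 0.250 in T or NK cells. The result of 1 gene of the pathway lists is not reported here.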

Additional observations from a re-analysis of the deposited data

Results flagged for a closer look

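Members whose cerulein effect in 1 class differed from the mean effect of the other classes, by edgeR's interaction test with Benjamini-Hochberg adjustment over 10904 genes, were 5 in acinar cells and 1 each in B or plasma and T or NK cells. In acinar cells the log2 difference was -7.07 for Psmb8, 3.10 for Psmb10, 1.70 for Ifi27, 3.14 for Ifitm2 and 3.66 for Ifitm3. It was -3.20 for Ifitm3 in B or plasma cells and -4.01 for Ifitm2 in T or NK cells. The Psmb8 and lymphocyte values rest on few UMIs, and the acinar values come from a class in which 15.3% of all genes were called, a share like that of the members (5 of 35). No library could be tested as standing apart within a group, since each group holds 1 or 2 libraries.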

How the results depend on the processing

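The count of members called between classes (151 over 6 classes) stayed within 1.5 times under each alternative run. The cerulein count did not. In macrophages the 1 call became 9 with DESeq2 size factors, 5 without the low-count filter, 8 with the fractions of a run summed, 6 at Leiden resolution 0.5, 2 without enzyme and haemoglobin genes, and 0 with DESeq2, with all deposited barcodes or with shared barcodes kept; without EYFP positive run 2 it was 1. In acinar cells the 0 became 1 with fractions summed, 2 without cluster 20 (the enzyme-poor one) and 0 to 2 with 1 library left out. In B or plasma cells it became 2 without the filter, 1 with all deposited barcodes, 3 in EYFP negative libraries only, 2 with fractions summed and 0 to 3 with 1 library left out. In T or NK cells it became 2 without the filter, 1 in EYFP negative libraries only, 1 with fractions summed and 0 to 1 with 1 library left out. In endothelial cells it became 1 (H2-Q7, lower) without the filter. In all, 21 of 111 such counts moved, and the cause was not tested.

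In the EYFP contrast the 0 became 1 in ductal cells with all deposited barcodes or with doublets kept (Ifit3), 1 in T or NK cells without the filter (Irf8), and 1 in macrophages with DESeq2 size factors or without the filter (H2-K1). With run number as a replicate block, 0 members were called in acinar, ductal, endothelial, B or plasma and T or NK cells, so the pairing changed no call. The interaction count of 7 ran from 3 to 11 with 1 library left out. With limma the Ifitm3 value of B or plasma cells was -2.48 (adjusted p = 0.559) and the Ifitm2 value of T or NK cells -2.58 (adjusted p = 0.165). The difference in cells with at least 3 induced genes was 0 points in acinar and ductal cells, where every library was at 0%, and became -0.698 in acinar cells without thinning and 29.9 (without thinning) or -1.21 (at least 2 genes) in ductal cells. In T or NK cells its sign changed without thinning (3.58), with stricter cells (0.108), and without EYFP negative run 1 or EYFP positive run 3 (0.159 to 0.179; without other libraries down to -1.11). Stricter cells left no gene called in acinar cells after cerulein. Few cells per library limit the cerulein and EYFP comparisons: macrophages reached 10 cells in 4 libraries, and 9 acinar members passed the low-count filter.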
